A study of Mus musculus with 6 samples.

Results

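The genes described here are 8 Kruppel-like factors, Klf2, Klf3, Klf4, Klf5, Klf6, Klf9, Klf10 and Klf13, taken by name from the 53465 genes counted in mouse embryonic stem cells. The other measured genes of the KLF and SP family, 18 in number, are used for comparison. RNA was sequenced from 6 cultures of the Royan B20 line, grown on 0.1% gelatin and carried for 7 passages in R2i medium with LIF. The R2i_BMPi cultures received 250 nM noggin and 5 µM dorsomorphin, both inhibitors of BMP signalling, and number 3. The 3 R2i_control cultures did not. Cells of both groups were kept in 1 µM of the MEK inhibitor that the labels spell PD0329501 and 10 µM SB431542, an inhibitor of the TGF-beta, activin and nodal receptors. All 6 libraries come from 1 cell line, the labels do not say how long the BMP inhibitors were present, and noggin and dorsomorphin were added together, so their effects cannot be told apart.

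Kruppel-like factors are transcription factors that bind CACCC and GC-rich DNA through zinc fingers at the carboxy terminus. In mouse embryonic stem cells Klf2, Klf4 and Klf5 help to sustain self-renewal and bind many of the same genes. Klf4 is induced by LIF through STAT3, and the KLF2 protein is destabilised by MEK-ERK signalling, so that MEK inhibition favours it. Klf3, Klf9, Klf10 and Klf13 are best known as repressors that recruit CTBP or SIN3A complexes, and Klf6 as a widely expressed activator that responds early to injury and growth signals.

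Gene counts totalled 31474666 to 33774524 in the R2i_BMPi libraries and 32720441 to 35322844 in the controls. The first principal component of the 2000 most variable genes held 88.7% of the variance and separated the groups. On the second, which held 3.4%, R2i_BMPi replicate 2 lay apart from replicates 1 and 3 (-17.4 against 12.96 and 3.16). Embryonic stem cell markers were abundant in every library, with a summed level of 4677 to 4943 CPM, counts relative to the size of the library, in R2i_BMPi and 4970 to 5166 CPM in control over 10 genes. All values in CPM were scaled by TMM, a correction for differences in library composition. Differences were tested with edgeR's quasi-likelihood test over 15951 genes, p-values being adjusted by Benjamini-Hochberg and read at 0.05. Of the 10 embryonic stem cell markers, whose summed levels did not overlap between the groups, 5 were called lower and 2 higher in R2i_BMPi. For all genes tested the shares were 31.7% lower and 32.5% higher.

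All 8 members passed the count filter, and most were lower in the BMP-inhibited cultures. Of the 8, 6 fell, 1 rose (Klf6) and 1, Klf13, did not pass the threshold. Over all genes tested 64.2% were called, 31.7% as lower and 32.5% as higher in R2i_BMPi, so a called gene was common in this comparison in either direction. The members' median log2 fold change was -0.18, against -0.0031 over all genes tested, whose mean was 0.042. None of the 8 changed by 2-fold or more, where 15.5% of all genes were called with such a change. The groups did not overlap for 7 of the 8, all but Klf2, and for 68.6% of all genes. Klf4, Klf10 and Klf6 had the 3 largest differences of the 8, and their absolute log2 fold changes were at least as large as those of 78.5%, 79.5% and 80.2% of tested genes. In bulk RNA, fewer cells that express a gene and less RNA per cell cannot be told apart.

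**Figure D1:**
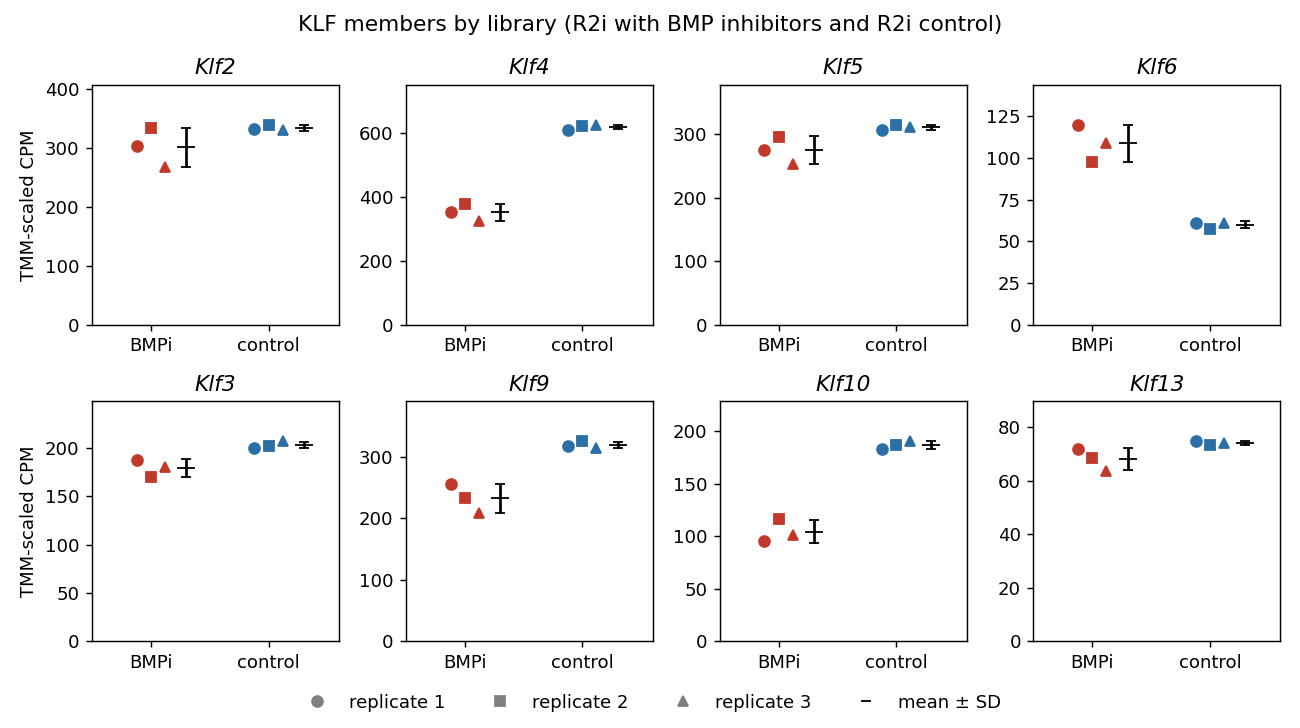
TMM-scaled CPM (vertical axes, each from 0) of the 8 Kruppel-like factors in the 3 R2i_BMPi libraries (red, left) and the 3 R2i_control libraries (blue, right), with the marker shape giving the replicate and black bars the mean ± SD. The groups are separate for Klf4, Klf10, Klf9 and Klf6, close for Klf3, Klf5 and Klf13, and overlapping for Klf2.

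Among the factors of the self-renewal network, Klf4 fell most. It had 353, 378 and 325 CPM in R2i_BMPi replicates 1, 2 and 3, against 610.0, 620.1 and 625 CPM in the controls. Every BMP-inhibited library was far below every control, and the means were 352 ± 26.5 and 618 ± 7.68 CPM (SD, n = 3 each). The log2 fold change was -0.81 (SE 0.05, 95% interval -0.92 to -0.71, edgeR adjusted p = 1.33e-09), which is 0.57 times the control level. Klf4 (ENSMUSG00000003032) lies on chromosome 4 at 55527143 to 55532466 on GRCm38, minus strand.

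Klf2 was the member with the weakest support among those called. It had 302, 333 and 267 CPM in R2i_BMPi cells, against 331, 339 and 329 CPM in control cells. Replicate 2 of the BMP-inhibited group lay within the control range while replicates 1 and 3 lay below it, so the groups overlapped. Klf2 fell by 0.15 on the log2 scale (SE 0.06, edgeR adjusted p = 0.0436). The size of this difference rested on single libraries. Without R2i_BMPi replicate 3 it was -0.07 (edgeR adjusted p = 0.254) and without R2i_BMPi replicate 2 it was -0.22 (edgeR adjusted p = 0.000477). The call was also lost without R2i_BMPi replicate 1 (adjusted p = 0.0542), without control replicate 1, 2 or 3 (0.0899, 0.115 and 0.0798), with the stricter count filter (0.0522) and with DESeq2 (0.0521). The gene (ENSMUSG00000055148) lies on chromosome 8 at 72319033 to 72321656.

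Klf5, which acts in the inner cell mass and trophectoderm of the embryo, fell slightly and in every library. Its levels were 275, 296 and 253 CPM in R2i_BMPi and 306, 314 and 311 CPM in control, a log2 fold change of -0.18 (SE 0.05, edgeR adjusted p = 0.00618). The highest BMP-inhibited library was just below the lowest control. The gene (ENSMUSG00000005148, chromosome 14, 99298691 to 99315036) is the nearest family neighbour of Klf12, which lies 556 kb away with no protein-coding gene annotated between them.

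Ratios of these genes within a library do not depend on how libraries were scaled to each other, and 4 such ratios were computed, all chosen after the results were seen. Per kilobase (kb) of exon, Klf4 stood to Klf2 at 0.707, 0.689 and 0.739 in R2i_BMPi replicates 1 to 3, against 1.116, 1.11 and 1.15 in control. Klf4 stood to Klf5 at 2.19 ± 0.00633 in R2i_BMPi and 3.395 ± 0.0295 in control (SD, n = 3 each). Neither ratio overlapped between the groups, and each had a two-sided exact permutation p = 0.1, the smallest that 3 against 3 libraries allow (adjusted p = 0.133 over the 4 ratios). The ratio of Klf2 to Klf5 was 3.08 ± 0.0999 in R2i_BMPi and 3.02 ± 0.0362 in control and overlapped (exact permutation p = 0.5, adjusted p = 0.5). The fourth ratio, Klf6 to Klf10, was 1.01 ± 0.202 in R2i_BMPi and 0.306 ± 0.0122 in control and did not overlap (exact permutation p = 0.1, adjusted p = 0.133). Klf4 was thus lower relative to both partners in every R2i_BMPi library than in any control, whereas Klf2 and Klf5 had a ratio whose group means differed by less than the SD of the BMP-inhibited libraries.

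Klf6 was the single member that rose. It had 119.9, 97.8 and 109 CPM in R2i_BMPi cells, against 61.2, 57.7 and 61.2 CPM in control cells. The groups were well separated, with means of 109 ± 11.04 and 60.0 ± 2.02 CPM (SD, n = 3 each). The log2 fold change was 0.86 (SE 0.06, 95% interval 0.72 to 1.00, edgeR adjusted p = 1.42e-08), or 1.82 times the control level. Klf6 (ENSMUSG00000000078) lies on chromosome 13 at 5861482 to 5870394, plus strand.

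Among the repressors, Klf10 and Klf9 fell clearly. Klf10, first described as a TGF-beta-inducible early gene, had 95.3, 117 and 101 CPM in R2i_BMPi cells and 183, 187 and 190.5 CPM in control cells. The lowest control was well above the highest BMP-inhibited library. Its log2 fold change of -0.84 (SE 0.06, edgeR adjusted p = 9.9e-09) was the largest fall of the 8, in cells of which both groups had the TGF-beta receptor inhibitor. Klf10 (ENSMUSG00000037465) lies on chromosome 15 at 38291463 to 38300706.

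Klf9, a gene known to be induced by glucocorticoid and thyroid hormone, had 256, 233 and 208 CPM in R2i_BMPi cells, against 317, 325 and 314 CPM in control cells. All 3 BMP-inhibited libraries lay below the controls, spread over a wider range than them. Klf9 fell by 0.46 on the log2 scale (SE 0.06, edgeR adjusted p = 5.46e-06). The gene (ENSMUSG00000033863) lies on chromosome 19 at 23141226 to 23168134.

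Klf3 and Klf13 differed little. Klf3, a CTBP-recruiting repressor (ENSMUSG00000029178, chromosome 5, 64803388 to 64832901), had 187, 169.5 and 180.4 CPM in R2i_BMPi cells and 200.0, 202 and 207 CPM in control cells. The groups were separate by a small margin, and the log2 fold change was -0.18 (SE 0.05, edgeR adjusted p = 0.00252). Of its 11243 bp of exon, 404 bp are overlapped by the antisense gene Gm20033, which had 12 to 16 counts in the R2i_BMPi libraries and 18 to 33 in the controls. Klf13, which recruits SIN3A (ENSMUSG00000052040, chromosome 7, 63886351 to 63938915), had 71.9, 68.6 and 63.7 CPM in R2i_BMPi cells and 74.8, 73.6 and 74.2 CPM in control cells. Although these values did not overlap, Klf13 just missed the threshold (log2 fold change -0.12, 95% interval -0.24 to -0.01, edgeR unadjusted p = 0.0329, adjusted p = 0.0512). It passed with limma-voom (adjusted p = 0.0452), upper-quartile factors (0.0294) and library totals (0.0077), and without R2i_BMPi replicate 1 (0.00821) or replicate 2 (0.0449).

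**Figure D2:**
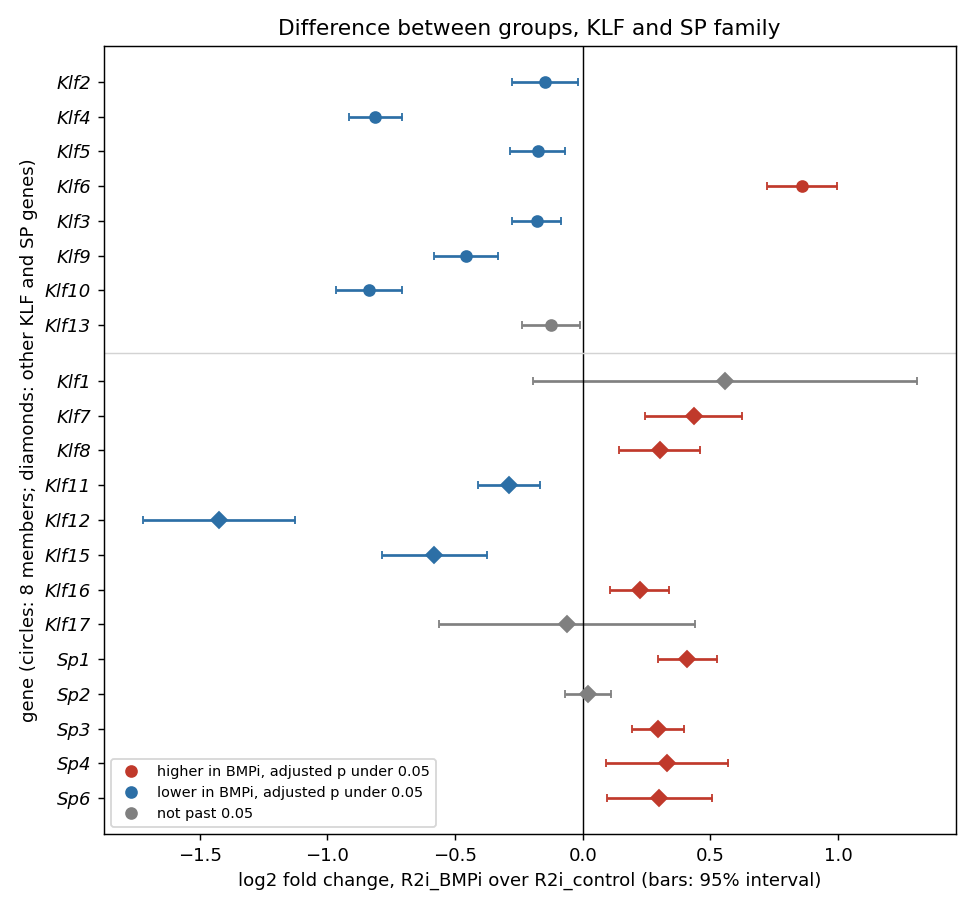
Log2 fold change of R2i_BMPi over R2i_control (horizontal axis, bars the 95% interval) for the 8 members (circles, above the line) and the 13 other KLF and SP genes tested (diamonds), coloured by direction among those past an adjusted p of 0.05. Klf6 alone lies to the right among the members, whereas 7 of the 13 others were called higher, beside 32.5% of all genes tested.

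Libraries of the BMP-inhibited group varied more for every member. The coefficient of variation was 5.0% (Klf3) to 11.0% (Klf2) in R2i_BMPi and 0.781% (Klf13) to 3.37% (Klf6) in control. Over 9552 tested genes with a mean of at least 10 CPM the medians were 5.62% and 2.83%. Klf2, Klf4 and Klf5 shared 1 order across the R2i_BMPi libraries, highest in replicate 2 and lowest in replicate 3, and Klf9 and Klf13 were also lowest in replicate 3. Klf6 and Klf3 were lowest in replicate 2, and Klf10 was lowest in replicate 1 and highest in replicate 2. Replicate 2 was apart on the second principal component. On the first it also lay somewhat nearer the controls, at 41.3 against 48.1 and 49.2 for replicates 1 and 3. The controls were at -46.9 to -45.7. Leaving replicate 2 out gave log2 fold changes of -0.86 for Klf4, -0.23 for Klf5, 0.93 for Klf6, -0.92 for Klf10, -0.46 for Klf9 and -0.14 for Klf3. Each was still past the threshold, and then 7 of the 8 members were called lower. Without R2i_BMPi replicate 1 or 3 the number called lower was 6 or 5.

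Compared per length, the order of the leading members differed between the groups. In R2i_BMPi cells Klf2 was highest, at 163 ± 17.9 CPM per kb of exon, followed by Klf4 at 116 ± 8.69 (SD, n = 3). In control cells Klf4 led with 203 ± 2.52 CPM per kb, ahead of Klf2 at 180.2 ± 2.70. In neither group did the ranges of these leading members overlap. Klf5 and Klf9 followed, at 52.8 and 48.2 CPM per kb in R2i_BMPi, where their ranges overlapped, and at 59.7 and 66.2 in control, where they did not. Klf10 was at 25.01 CPM per kb and Klf6 at 24.8 in R2i_BMPi, with overlapping ranges, against 44.7 and 13.7 in control. By this length Klf3 and Klf13 were low in both groups, at 15.9 and 9.04 CPM per kb in R2i_BMPi and 18.04 and 9.85 in control. With the longest coding transcript as the length in place of all merged exons, Klf2 and Klf4 changed places between the groups in the same way, but Klf5 stood above Klf9 and Klf3 above Klf6 in both, so those orders depend on the length used. The levels themselves also moved, most for Klf3, which was at 34.3 CPM per kb in R2i_BMPi and 38.8 in control by that length, level with Klf10 at 34.3 in R2i_BMPi.

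Klf2 and Klf4 were among the more abundant transcripts of these cells by this measure. Klf2 stood at the 98.6th percentile of tested genes in R2i_BMPi and the 98.9th in control, and Klf4 at the 97.6th and the 99.0th. Summed over the 8 members, the level was 454 ± 34.3 CPM per kb in R2i_BMPi and 595 ± 5.41 in control (SD, n = 3 each), and the groups did not overlap. Klf4 made up 25.4% of that sum in R2i_BMPi and 34.1% in control, Klf2 35.8% and 30.3%, and Klf6 5.49% and 2.297%. Klf2, Klf4 and Klf5 together held 72.9% and 74.4%, which was most of the summed level of the 8 in both groups.

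**Figure D3:**
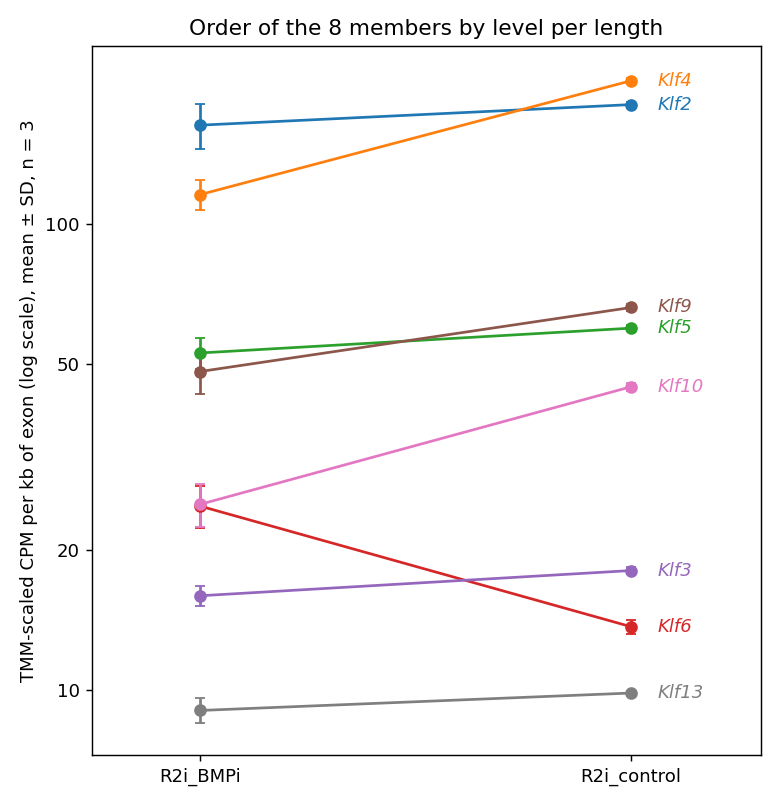
Mean ± SD (n = 3) of TMM-scaled CPM per kb of merged exon on a log axis for the 8 members, R2i_BMPi on the left and R2i_control on the right. The lines of Klf4 and Klf2 cross, Klf4 standing at 116 and 203 and Klf2 at 163 and 180.2, and Klf6 is the one line that is higher on the left.

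The promoter windows of 6 of the 8 members are in the RefSeq table of build GRCm38.p6, from 250 bases before the transcript start to 50 after it. Those of Klf4, the self-renewal factor that fell most, of Klf9, a repressor that fell, and of Klf6, which rose, are shown 5′ to 3′ to set their sites for KLF and SP proteins beside the values above. Capitals mark GGGCGG, the GC box, and CACCC, on either strand.
Klf4 (chr4:55532426-55532725, minus strand): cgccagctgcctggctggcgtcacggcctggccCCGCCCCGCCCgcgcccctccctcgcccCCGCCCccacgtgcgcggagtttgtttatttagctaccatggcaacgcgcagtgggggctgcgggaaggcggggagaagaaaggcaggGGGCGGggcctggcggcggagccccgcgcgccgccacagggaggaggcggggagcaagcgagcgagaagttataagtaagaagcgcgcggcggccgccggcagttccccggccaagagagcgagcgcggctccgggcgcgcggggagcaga
Klf9 (chr19:23140976-23141275, plus strand): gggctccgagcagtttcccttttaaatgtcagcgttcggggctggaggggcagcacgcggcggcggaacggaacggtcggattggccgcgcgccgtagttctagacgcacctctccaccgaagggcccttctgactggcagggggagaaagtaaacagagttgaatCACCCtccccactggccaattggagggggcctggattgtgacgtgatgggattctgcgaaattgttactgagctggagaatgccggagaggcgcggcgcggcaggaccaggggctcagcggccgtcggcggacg
Klf6 (chr13:5861239-5861538, plus strand): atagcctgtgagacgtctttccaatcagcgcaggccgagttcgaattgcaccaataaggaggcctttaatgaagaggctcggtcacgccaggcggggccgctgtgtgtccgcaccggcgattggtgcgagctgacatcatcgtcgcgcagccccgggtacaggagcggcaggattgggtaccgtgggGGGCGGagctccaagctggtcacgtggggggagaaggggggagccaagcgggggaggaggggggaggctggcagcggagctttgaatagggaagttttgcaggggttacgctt

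The Klf4 window held 4 GC boxes, and its CACCC count was 0. The Klf6 window held 1 GC box, and that of Klf9 held 1 CACCC. Among the windows not printed, Klf3 had 6 GC boxes and 5 CACCC, Klf2 had 2 and 1, and Klf13 had 3 and 1. Of all 32851 promoter windows in the table, 35.7% hold a GC box and 57.5% a CACCC. The 6 windows are GC-rich, at 63.0% to 76.7% against a median of 52.7% over all windows. CCAAT, counted on both strands, occurred 4 times for Klf6, 3 times for Klf9 and 2 times for Klf13 and is present in 37.4% of all windows. A STAT-type TTCNNNGAA occurred in the Klf9 window, and 8.3% of all windows hold one. GGCGCC, a GC-rich element bound by BMP-activated SMADs, occurred once, in Klf3, and is in 11.9% of all windows. These are matches of letters, and no binding was measured.

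Among the rest of the family more genes rose than fell. Of 18 other KLF and SP genes 13 passed the count filter, and 7 rose, 3 fell and 3 did not pass, with a median log2 fold change of 0.29 and a mean of 0.04. With 1 library left out, 5 to 8 were called higher and 3 lower. Over all genes tested 32.5% were called higher and 31.7% lower, with a mean log2 fold change of 0.042. The general activators Sp1 and Sp3 rose by 0.41 and 0.29, and Sp4 and Sp6 by 0.33 and 0.30. Sp4 and Sp6 were no longer called without R2i_BMPi replicate 1 (log2 fold changes 0.28 and 0.23, edgeR adjusted p = 0.0559 and 0.0552) or control replicate 3 (0.30 and 0.23, adjusted p = 0.0686 and 0.0869), nor Sp4 without control replicate 2 (0.28, adjusted p = 0.0891). Sp1 was abundant, at 303 ± 25.6 CPM in R2i_BMPi and 228 ± 7.95 CPM in control (SD, n = 3 each). Klf7, a regulator of neuronal genes, rose by 0.43, Klf8, a CTBP-recruiting repressor, by 0.30, and Klf16 by 0.22. The largest difference among the tested genes of the family was that of Klf12, a further CTBP-recruiting repressor, which had 7.78, 5.07 and 4.87 CPM in R2i_BMPi cells and 15.4, 16.4 and 15.8 CPM in control cells. Klf12 fell by 1.43 on the log2 scale (log2 fold change SE 0.14, 95% interval -1.72 to -1.13, edgeR adjusted p = 3.12e-07). Its genomic neighbour Klf5 fell by 0.18. Klf15, a glucocorticoid-responsive metabolic regulator, fell by 0.58, and Klf11, a relative of Klf10 that also responds to TGF-beta, by 0.29. Klf1, the erythroid factor, was at 0.56 (95% interval -0.20 to 1.31) from under 1 CPM in both groups, Klf17 at -0.06 and Sp2 at 0.02. Klf14, Sp5, Sp7, Sp8 and Sp9 did not pass the filter, with mean levels of 0.0107 to 0.4799 CPM in R2i_BMPi and 0.0189 to 0.222 CPM in control. Of these, Sp5 had 11, 10 and 8 counts in R2i_BMPi and 1, 1 and 2 in control, a pair of groups that did not overlap and were not tested. Klf7, Sp2, Sp3 and Sp6 overlap antisense genes and are uncertain, Klf7 over 3200 bp and Sp6 over 3329 bp.

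Genes of LIF-STAT3 signalling, which induces Klf4 and Klf5 in mouse embryonic stem cells, were mostly higher. Of 8 tested, 6 rose and 1 fell, with a median of 0.28, where 32.5% of all genes tested were called higher and 31.7% lower. The kinase gene Jak1 rose by 0.47, the receptor gene Lifr by 0.37 and the cytokine gene Lif by 0.71, while the kinase gene Tyk2 fell by 0.45. Lif was at 18.98 ± 1.94 CPM in R2i_BMPi and 11.6 ± 0.893 CPM in control (SD, n = 3 each). Klf4 and Klf5 were lower in libraries in which most of these LIF-STAT3 genes were higher. Their RNA is no measure of STAT3 activity, and a link to the KLF falls was not tested. Jak1 and Tyk2 overlap antisense genes.

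The naive pluripotency factors that act beside these KLFs fell for the greater part. Of 14 tested, 8 fell, 2 rose and 4 did not pass, with a median of -0.16. With 1 library left out, 7 to 9 were called lower and 1 to 2 higher. Among all genes tested 31.7% were called lower and 32.5% higher. Tcl1, a co-activator of the AKT kinase, fell by 0.75, the repressor gene Prdm14 by 0.72 and Nanog by 0.47, and Gbx2, a LIF-STAT3 target, rose by 1.31. Klf4 therefore had a fall somewhat above those of Tcl1 and Prdm14, and Klf2 and Klf5 had falls below that of Nanog, with no test made between genes. Apart from Gbx2 the gene called higher was Nr5a2, named after its value was seen, at 0.16, and it was no longer called without R2i_BMPi replicate 1 or 3, any 1 of the 3 controls (log2 fold changes of 0.11 to 0.16, edgeR adjusted p of 0.0511 to 0.081 over these fits) or with library totals only (0.10, adjusted p = 0.114). Among the genes called lower, Tfcp2l1 was at -0.13 and was also named after its value was seen. Its call was lost without R2i_BMPi replicate 3 or any 1 of the 3 controls (edgeR adjusted p of 0.0709 to 0.192). Gbx2 overlaps an antisense gene.

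Genes for proteins that KLFs recruit, and for ligases and deubiquitinases that act on KLF proteins, showed mostly small RNA differences in both directions. Calls took in 64.2% of all genes tested, 32.5% as higher and 31.7% as lower. Of 12 co-regulator genes 5 rose and 4 fell, or 4 and 6 with library totals only, with a median of -0.04. The acetyltransferase gene Ep300 rose by 0.38 and the deacetylase gene Hdac1 by 0.19, and the acetyltransferase gene Kat2b and the methyltransferase subunit gene Wdr5 fell by 0.31 and 0.22. Of 12 ubiquitin ligase and deubiquitinase genes 5 rose and 2 fell, or 3 and 3 with library totals only, with a median of 0.04. Fbxw7, whose protein targets KLF5 for degradation, rose by 0.56, and Fbxo22, Smurf2 and Smurf1 by 0.29, 0.30 and 0.15. The number higher was 3 without R2i_BMPi replicate 3 or control replicate 3. The 2 that fell, Btrc and Bap1, were named after their values were seen, at -0.15 and -0.11. The edgeR count of lower genes was 1 without control replicate 3, and 0 (1 at an unadjusted p under 0.05) without R2i_BMPi replicate 2, control replicate 1 or control replicate 2, where DESeq2 on all libraries gave 1. Ep300 and Smurf2 overlap genes on the same strand, and Fbxo22 and Btrc overlap antisense genes.

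Genes with the most similar profile to each member over the 6 libraries were found among 9729 genes whose log2 CPM averaged 3 or more, by the root-mean-square difference of centred log2 CPM. The 6 libraries form 2 groups, so this likeness includes the group difference. Nearest to Klf2 were Tbx3, another naive factor, at 0.019 and Arf6 at 0.026. Klf4 was near to Arl14ep, at 0.021, and Klf5 was nearest to Ung at 0.021 and Fem1b at 0.022. Klf6 was nearest to Slc7a2, a cationic amino acid transporter gene, at 0.0297 and Pank3 at 0.035. Mapk4 and Rars2 were nearest to Klf10, at 0.011 and 0.018. For Klf9 these were Klhl24 at 0.026 and Mlh3 at 0.032, for Klf3 Arhgap19 and Slc41a1, both at 0.019, and for Klf13 Cenpq at 0.012 and Arl8b at 0.019.

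Markers of other cell types differed along with the KLF genes. Their calls stand beside 32.5% of all genes tested called higher and 31.7% called lower. The summed level of 12 trophectoderm markers was 336 to 424 CPM in R2i_BMPi and 181 to 187 CPM in control, with 8 of the 10 tested called higher. One of these, Hand1, could pass the count filter only through the BMP-inhibited libraries, and 7 were called without it. In R2i_BMPi replicates 1, 2 and 3 the summed level was 384, 336 and 424 CPM, so that replicate 2 was lowest, as it was for Klf6 and Klf3, while replicate 3 was highest, where Klf6 was highest in replicate 1. Summed over 10 genes of the 2-cell-like state, the level was 28.7 to 42.6 CPM in R2i_BMPi and 0.0276 to 0.0878 CPM in control, where 6 of the 10 had no count. All 9 of these that were tested were called higher, but they could pass the count filter only through the BMP-inhibited libraries. Primitive endoderm markers summed to 158 to 171 CPM in R2i_BMPi and 248 to 259.8 CPM in control, with 4 called higher and 3 lower of 9 tested. Lama1, a laminin chain gene named after its values were seen, made up the difference, at 41.8 to 55.5 CPM in R2i_BMPi and 143 to 149.9 CPM in control, and the other 9 markers summed to 112 to 124 CPM in R2i_BMPi and 105 to 109.96 CPM in control. Fibroblast markers summed to 9.59 to 9.73 CPM in R2i_BMPi and 5.76 to 7.15 CPM in control, with 2 of 4 tested called higher and Fap at 0 in every library. Of these 2, Postn could pass the filter only through the BMP-inhibited libraries. The part of such cells in the KLF differences was not tested.

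**Figure D4:**
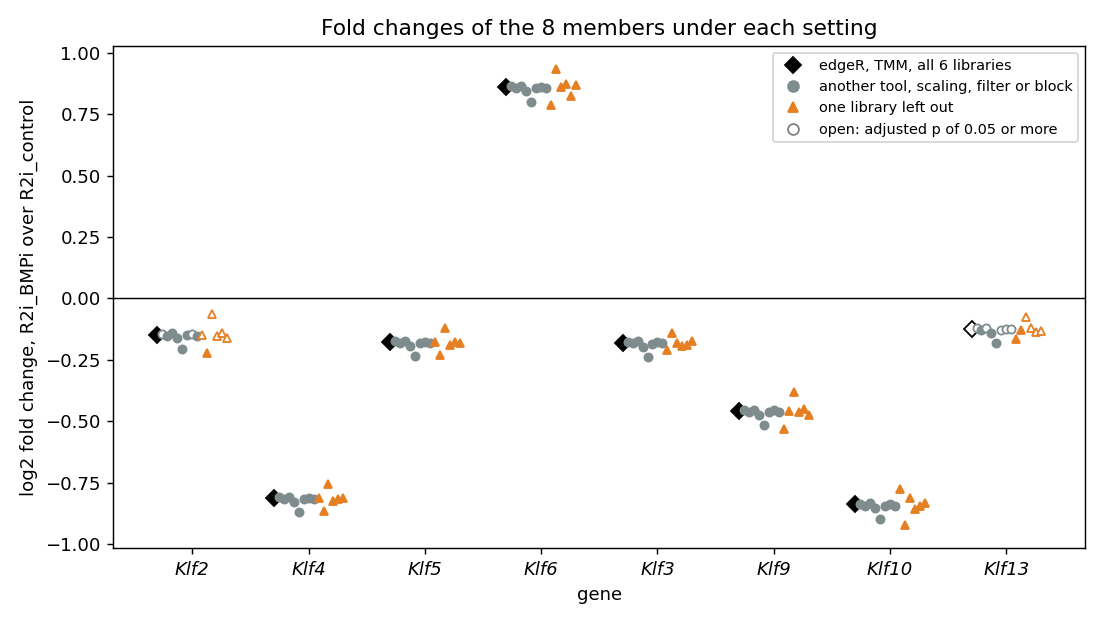
Log2 fold change of R2i_BMPi over R2i_control (vertical axis) for the 8 members with the main test on all 6 libraries (black diamonds), under another tool, scaling, filter or block (grey circles) and with 1 library left out (orange triangles), open where the adjusted p was 0.05 or more. Klf2 and Klf13 hold the open symbols, and no value crosses 0.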

How the data were processed

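Poly(A) RNA was sequenced in 6 libraries, 3 per group, which the labels call biological replicates without naming their cultures. The authors deposited raw read counts per gene, 1 table per library. Per the submitters' processing notes the tools were STAR 2.6.1, HTSeq 0.9.1, cutadapt 1.4.2, CASAVA 1.8.2 and DESeq2, with no role given, and the build was GRCm38.p6. The annotation release and strand setting are not given in the sources used here, so antisense overlaps are uncertain. The 5 rows that name no gene took 25.6% to 26.4% of reads and were left out. Symbols, exons and coordinates came from GENCODE M21 on GRCm38, which matched 53360 of 53465 identifiers.

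Genes were kept with edgeR 4.0.16's default filter (count of 10 scaled to depth, total of 15) and tested, two-sided, with its quasi-likelihood F test after TMM scaling and Benjamini-Hochberg adjustment over all genes. Standard errors came from the unshrunk coefficient and F, and 95% intervals from them. Levels per kb use all merged exons, which understates genes with many alternative exons. The test was run on simulated counts beforehand, where the share of false calls was above the nominal level in the draw used and on either side of it in others. The simulation took its levels and spread from these counts and changed a small part of the genes, in random directions. In the data 64.2% of genes were called, so the simulation does not show the share of false calls there. No pairing was used, because the labels do not say what a replicate number shares. Deviations of same-numbered libraries from their group means had correlations of -0.044, 0.0079 and 0.029. With 3 libraries a group these cannot exclude a pairing. The counts of libraries within a group differed beyond sampling noise (chi-square per gene 2.33 or more). Alternatives used DESeq2 1.42.0, limma 3.58.1 (voom), other scalings and filters, a replicate block and each library left out, in R 4.3.3.

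The members and lists were chosen with earlier results of these data known. Named genes were the 8 members, every other tested KLF or SP gene, up to 4 genes with the smallest p of each further list and the 2 genes most like each member, of which 1 is not reported here.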

Additional observations from a re-analysis of the deposited data

How the results depend on the processing

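Klf4, Klf10, Klf6, Klf9, Klf5 and Klf3 kept their direction and stayed past the threshold under all 14 alternatives, and the direction of Klf2 and Klf13 did not change under any. Log2 fold changes with 1 library left out ran from -0.864 to -0.755 for Klf4, -0.924 to -0.774 for Klf10, 0.788 to 0.935 for Klf6, -0.2239 to -0.0654 for Klf2 and -0.164 to -0.0758 for Klf13. The Klf2 call was lost at -0.144 with DESeq2 and -0.145 with the stricter count filter. Klf13 was called at -0.127 with limma-voom, -0.141 with upper-quartile factors and -0.183 with library totals only. The count of lower members was 5 to 7 with a library left out, and that of higher members stayed 1. Of the ligase list, 1 gene was lower with DESeq2, with no count filter and with the replicate block, and 0 to 3 with a library left out; 3 were higher with library totals only and 3 to 5 with a library left out. Of the naive factors, 1 was higher with library totals only and 1 to 2 with a library left out. With the replicate number as a block, 5149 genes were higher and 5061 lower, against 5180 and 5056 without it. Among the 8 members no call changed (Klf2 -0.15, Klf13 -0.13). The labels do not say what libraries of the same number share. The causes were not tested. Library totals moved the median of all genes by less than 0.1, to -0.062. Depth limits Klf1 and Klf17, with 95% intervals of -0.20 to 1.31 and -0.56 to 0.44, and the 5 family genes that were not tested. With 3 libraries a group from 1 cell line, p-values set each group difference against the spread between these libraries only.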
